A study of Rattus norvegicus with 12 samples.

Results

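The T-cell and cytotoxic lymphocyte genes examined here are Cd3d, Cd3e, Cd3g, Cd8a, Cd4, Cd5, Nkg7, Gzmb, Prf1 and Il2rb. They were taken as every probe that carries 1 of these 10 gene names in the scanner files, which gave 13 of the 45598 probes of the array and 10 of its 25626 named genes. RNA came from calvarial bone, the flat bone of the skull roof, of 10-week-old rats, 24 h after surgery. The 12 single-colour Agilent arrays formed 3 groups of 4. In the laser group an 8 by 3 mm defect was ablated with an Er:YAG laser, whose infrared light is taken up by water in tissue. In the bur group a defect of that area was cut with a rotating bur. In the control group the bone was not ablated, but the membrane on its surface, the periosteum, was taken off, so even the control arrays come from operated bone. The labels name no strain or sex, and whether the 4 arrays of a group stand for 4 animals is not stated, so that the p-values rest on the spread between arrays alone, which may be technical.

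T cells recognise antigen through a receptor whose signal is carried by the CD3 chains, with CD4 or CD8 as co-receptor. Cytotoxic T cells and natural killer (NK) cells kill by releasing granules that hold perforin and granzymes, and CD8 is carried mainly by the T cells of that kind. In rats CD4 is also found on monocytes and macrophages, and the alpha chain of CD8 on NK cells and on activated macrophages. Bone marrow and the tissue around healing bone hold T cells, NK cells and many myeloid cells.

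A few probes are shown to make plain which stretch of each transcript was read. For each, 30 bases of the 60-base probe are given 5′ to 3′ as in the scanner files. They are the probes of the 3 CD3 chains, of both CD8 chains, of the CD4 co-receptor and of Nkg7. Capitals mark the first AATAAA of a probe, the common polyadenylation signal of messenger RNA, which was searched on the printed strand only.
Cd8a: tgtaaaatggcgccactaggaagccacaac
Cd8b: tgtccttcctacaactgctccaaccaaaaa
Nkg7: tgcctgagcctgggtgctcactgtagaacc
Cd3d: cttccccttgtgctcaaccAATAAAgatgt
Cd3e: caaggacagtggttactatgtctgctacac
Cd3g: ggaatatgaacagtacagccgtctccaagg
Cd4: agctgacaggaaAATAAAggctataaataa
The signal stands in the probe of Cd3d and in the brighter probe of Cd4, which makes 2 of the 13 probes, against 9.04% of all 45598 probes. The windows of Cd3d and Cd4 start at bases 31 and 25 of the probe and the others at base 1. In the rn4 build used by the scanner files the Cd8a probe lies at chr4:104593483-104593542 on the plus strand, the Cd8b probe at chr4:104542505-104542564 on the plus strand and the Nkg7 probe at chr1:93813978-93814037 on the plus strand. The Cd3d probe lies at chr8:47936669-47936728 on the plus strand, the Cd3e probe at chr8:47950313-47950372 and the Cd3g probe at chr8:47924376-47924435, both on the minus strand. In the RefSeq annotation of the GRCr8 assembly Cd3g and Cd3d are 485 bases apart and Cd3d and Cd3e 10504 bases, and Cd8b and Cd8a are 37277 bases apart on chromosome 4. Exon and untranslated region annotation was not used here.

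Laser arrays lay on 1 slide, and bur and control arrays shared another, in separate columns. Slide and treatment thus cannot be told apart for laser against bur or control, nor column and treatment for bur against control. The median signal before normalization was 54.1 to 79.7 on laser arrays, 17.9 to 27.5 on bur arrays and 16.2 to 42 on control arrays. Probes well above background made up 59.7 to 64.7% on laser arrays, 46.7 to 50.7% on bur arrays and 46.6 to 54.5% on control arrays. A larger number of laser arrays well above background for a gene therefore does not by itself show more of its RNA in laser bone. All 8 of 8 bone genes, such as Bglap and Col1a1, were well above background on at least 4 arrays. So were 8 of 8 B-cell, 8 of 8 neutrophil and 13 of 13 macrophage genes, so this does not test the bone label. The mean log2 level of 6 neural genes was 4.78 to 6.26 on laser arrays, 4.39 to 6.01 on bur arrays and 5.34 to 8.32 on control arrays, of which control 1 (8.32) and control 4 (7.62) stood apart. Counts are therefore also given without these 2 control arrays. Levels below are log2 of the quantile normalized intensity and differences are log2 fold changes, from 1 limma fit over the 27194 probes that 4 or more of the 12 arrays read well above background. A difference was called where the Benjamini-Hochberg adjusted p was under 0.05. Of the 13 probes 11 passed that filter, and they stood for 9 of the 10 genes, the exception being Cd5.

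Cd8a was far higher in bur-drilled bone than in the other 2 groups, while the CD3 chains were not called different in any comparison and Nkg7 was lower in bur-drilled bone than in control bone. For bur against control 2 of 9 genes were called, Cd8a higher and Nkg7 lower, against 20.4% of all probes tested (12.6% higher and 7.84% lower). For laser against control 0 of 9 were called by limma, and 0 had an unadjusted p under 0.05, against 32.8% of all probes (18.9% higher and 13.9% lower). For laser against bur 1 of 9 was called, Cd8a, lower, against 27.3% of all probes (13.4% higher and 13.9% lower), and 2 had an unadjusted p under 0.05. The median log2 fold change of the 9 genes was -0.14 for bur against control, 0.34 for laser against control and 0.39 for laser against bur, against 0.10, 0.05 and -0.06 over all probes tested. The share of these genes called is near the background for bur against control and below it in both laser comparisons. In whole bone, fewer cells of a type and less RNA per cell cannot be told apart.

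**Figure D1:**
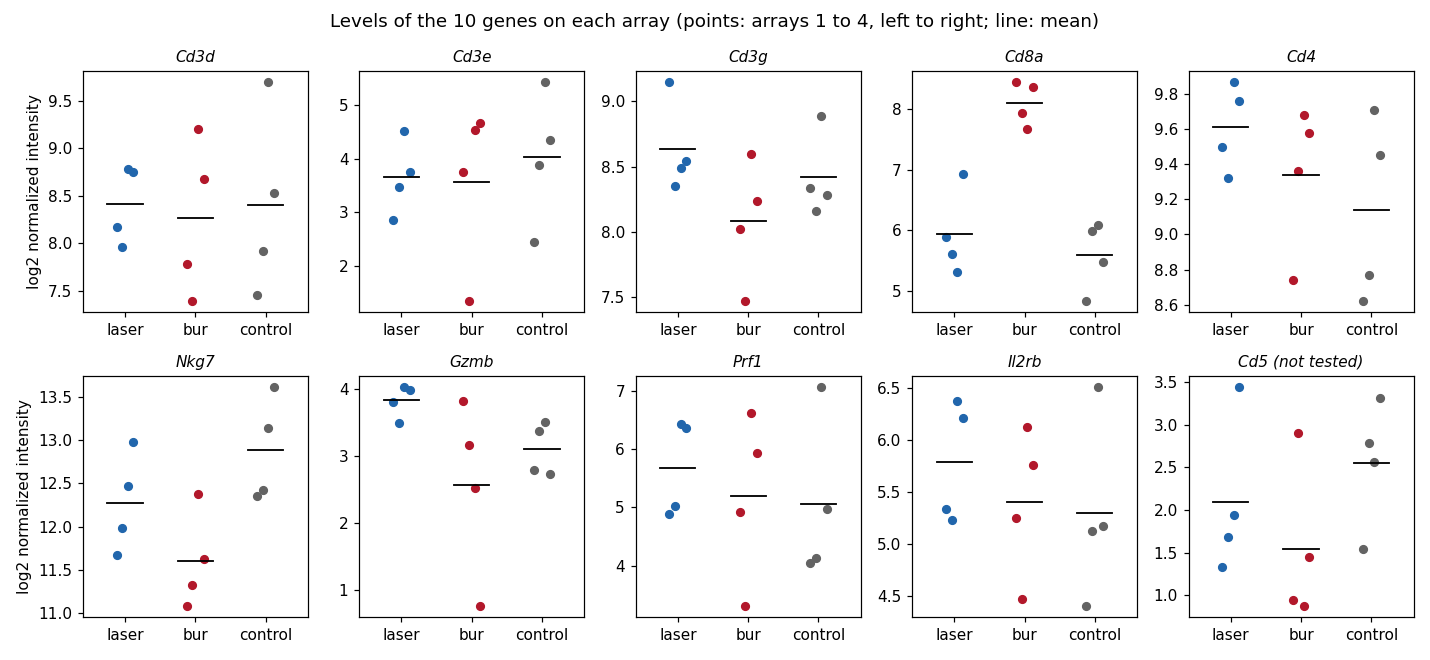
Levels of the 10 genes as log2 normalized intensity on each of the laser, bur and control arrays, with points for arrays 1 to 4 from left to right and a line at the group mean. For Cd8a the 4 bur arrays, at 7.67 to 8.44, lie above every laser and control array, while for Cd3d the 3 groups overlap throughout.

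The CD3 chains delta, epsilon and gamma, encoded by Cd3d, Cd3e and Cd3g, occur together in the T-cell receptor complex and are found on nearly all T cells. Cd3d read 8.17, 7.96, 8.78 and 8.75 on laser arrays, 7.78, 7.39, 9.20 and 8.68 on bur arrays and 7.46, 7.92, 9.70 and 8.53 on control arrays. The groups overlapped, and arrays of 1 group differed by far more than the group means. The Cd3d means were 8.42 ± 0.42 in laser, 8.26 ± 0.83 in bur and 8.40 ± 0.97 in control bone (SD, n = 4 each). The log2 fold change of Cd3d was -0.14 ± 0.50 (SE) for bur against control (limma adjusted p = 0.872), and the 95% interval for the fold ran over 0.427 to 1.93. For laser against control it was 0.01 (adjusted p = 0.986, interval 0.475 to 2.15), and for laser against bur 0.15 (adjusted p = 0.855, interval 0.523 to 2.36). These intervals are wide on both sides of no change, so an equal level was not shown.

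Cd3g read 9.15, 8.35, 8.49 and 8.54 on laser arrays, 8.02, 7.47, 8.60 and 8.24 on bur arrays and 8.34, 8.16, 8.89 and 8.28 on control arrays. The groups overlapped, with bur 2 the lowest and laser 1 the highest array. Cd3g differed by a log2 fold change of -0.33 ± 0.26 for bur against control (adjusted p = 0.399), 0.22 for laser against control (adjusted p = 0.562) and 0.55 for laser against bur (adjusted p = 0.147). In the authors' deposited table the last of these was also 0.55, with an adjusted p of 0.0484. Cd3e was dimmer and read 2.86, 3.47, 4.52 and 3.76 on laser arrays, 3.75, 1.34, 4.54 and 4.67 on bur arrays and 2.45, 3.89, 5.44 and 4.36 on control arrays. It was well above background on 4 laser, 3 bur and 2 control arrays, and its groups overlapped. Cd3e differed by a log2 fold change of -0.46 ± 0.77 for bur against control (adjusted p = 0.713), -0.38 for laser against control (adjusted p = 0.733) and 0.07 for laser against bur (adjusted p = 0.96). With the dim arrays raised to the background limit these were -0.10, -0.38 and -0.28, so the laser against bur value turned its direction.

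The alpha chain of CD8, encoded by Cd8a, forms the co-receptor that binds class I molecules of the major histocompatibility complex. Cd8a read 5.89, 5.62, 5.32 and 6.92 on laser arrays, 8.44, 7.92, 7.67 and 8.35 on bur arrays and 4.84, 5.99, 6.09 and 5.48 on control arrays. Every bur array was above every laser and every control array, and laser and control arrays overlapped. The means were 5.94 ± 0.69 in laser, 8.10 ± 0.36 in bur and 5.60 ± 0.57 in control bone (SD, n = 4 each). Cd8a was 5.64-fold higher in bur than in control bone, a log2 fold change of 2.50 ± 0.36 (SE, limma adjusted p = 0.00125), and the interval for the fold ran over 3.24 to 9.83. It was 4.47-fold lower in laser than in bur bone, a log2 fold change of -2.16 ± 0.36 (adjusted p = 0.00132). For laser against control the log2 fold change was 0.34 ± 0.36 (adjusted p = 0.51), and the interval for the fold ran over 0.726 to 2.20. The share of all probes whose groups did not overlap was 20.9% for bur against control and 34.7% for laser against bur. Both Cd8a calls held under every alternative run, and the smallest bur against control value was 1.68, with normexp background correction. Without control 1 and control 4 it was 2.06. In the authors' deposited table Cd8a differed by 2.15 for bur against control (adjusted p = 0.000245) and by -1.90 for laser against bur (adjusted p = 0.000277).

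**Figure D2:**
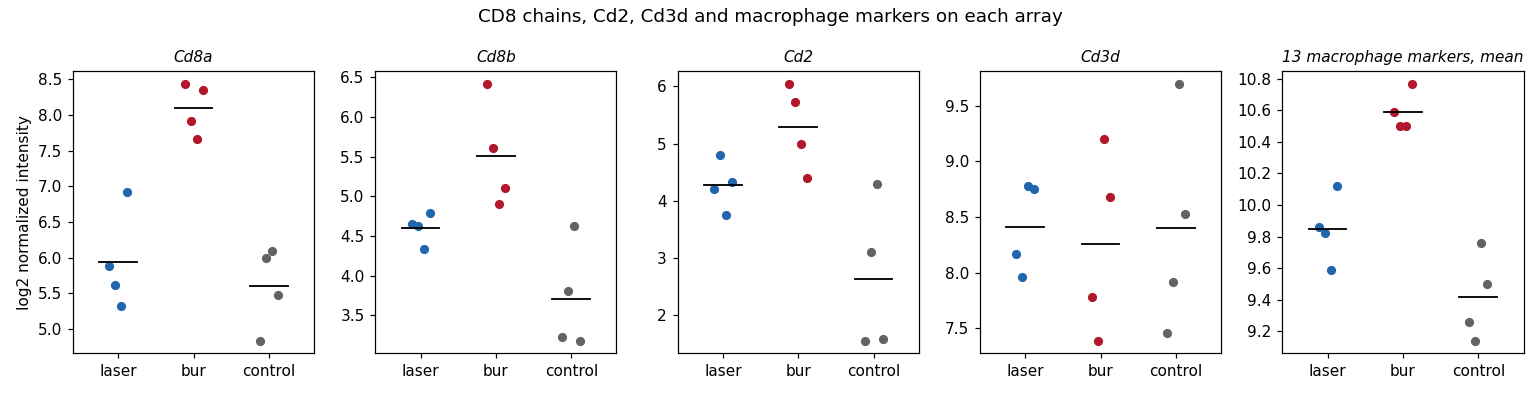
Log2 normalized intensity of Cd8a, Cd8b, Cd2 and Cd3d and the mean log2 level of 13 macrophage and monocyte markers on each laser, bur and control array, with a line at the group mean. Bur arrays are the highest group for Cd8a and for the macrophage mean (10.50 to 10.77), and the groups of Cd3d overlap.

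The beta chain of CD8, encoded by Cd8b, pairs with the alpha chain on cytotoxic T cells. Cd8b read 4.65, 4.63, 4.33 and 4.79 on laser arrays, 6.42, 5.61, 4.90 and 5.10 on bur arrays and 3.22, 3.81, 4.63 and 3.18 on control arrays. Bur arrays lay above control and laser arrays without overlap, but only 2 of 4 control arrays were well above background. Cd8b had a log2 fold change of 1.80 ± 0.37 for bur against control (adjusted p = 0.00638), 0.89 for laser against control (adjusted p = 0.085) and -0.91 for laser against bur (adjusted p = 0.0903). The laser against bur difference was called in the fit on the authors' values (-0.63, adjusted p = 0.035) and with normexp background correction (-0.39, adjusted p = 0.0446). Without control 1 and control 4 the bur against control call was lost (1.29, adjusted p = 0.0689), and with normexp background correction the difference was 0.58 and still called. Cd2, an adhesion receptor of T cells and NK cells, read 4.21, 4.81, 3.76 and 4.33 on laser arrays, 6.05, 5.73, 5.0 and 4.40 on bur arrays and 1.56, 3.10, 4.30 and 1.59 on control arrays. Bur and control arrays did not overlap, and 1 of 4 control arrays was well above background. Cd2 had a log2 fold change of 2.66 ± 0.58 for bur against control (adjusted p = 0.00868), or 2.28 with the dim arrays raised to the background limit. It was 1.60 without control 1 and control 4 (adjusted p = 0.0691), and 0.65 with normexp background correction, where it was still called.

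Markers of macrophages and monocytes were read beside Cd8a, and no association with it was computed. Of 13 such markers, 9 were higher and 0 lower for bur against control, against 12.6% and 7.84% of all probes. For laser against control, where Cd8a was not called, 4 were higher and 0 lower, against 18.9% and 13.9%. For laser against bur 0 were higher and 6 lower, against 13.4% and 13.9%. Their median log2 fold change was 1.21, 0.44 and -0.56 in that order. Their mean log2 level was 9.59 to 10.12 on laser arrays, 10.50 to 10.77 on bur arrays and 9.14 to 9.76 on control arrays, and their summed signal was 24600 to 32600 on laser arrays, 40100 to 49700 on bur arrays and 18100 to 28000 on control arrays. All 13 markers passed the filter on dim probes. Among them Cd14, a co-receptor for bacterial lipopolysaccharide, had a log2 fold change of 2.79 for bur against control (adjusted p = 0.00042), and Msr1, a scavenger receptor, one of 3.37 (adjusted p = 0.000819). C1qa, a complement subunit of resident macrophages, had one of -0.21 (adjusted p = 0.618), and Cd163, a haemoglobin scavenger receptor, one of -0.43 (adjusted p = 0.549). Without control 1 and control 4, 7 of the 13 were higher for bur against control and 2 for laser against control. In 12 fits that each left out 1 array, the Mrc1 call for bur against control held in 2 and the other marker calls in all 12. For laser against control the call held in 12 for Cd68, 7 for Cd14, 7 for Adgre1 and 6 for Msr1. The other Msr1 probe gave 0.86 there (adjusted p = 0.213). Of 5 markers shared by white blood cells, Cd53 was higher for bur against control (1.05, adjusted p = 0.00661), and Ptprc, which encodes CD45, had a log2 fold change of 0.54 (adjusted p = 0.0749). For laser against bur both were lower, each by 1.03 on the log2 scale (-1.03, adjusted p = 0.00516 for Cd53 and 0.003 for Ptprc), which makes 2 of the 5, and for laser against control 0 of the 5 were called by limma and 1 had an unadjusted p under 0.05. What part these cells had in the Cd8a result was not tested.

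The co-receptor CD4, encoded by Cd4, binds class II molecules and marks helper T cells. Its brighter probe read 9.50, 9.32, 9.87 and 9.76 on laser arrays, 8.74, 9.36, 9.68 and 9.58 on bur arrays and 8.62, 8.77, 9.71 and 9.45 on control arrays. The groups overlapped. Its log2 fold change was 0.21 for bur against control (adjusted p = 0.641), 0.48 ± 0.28 for laser against control (adjusted p = 0.207) and 0.27 for laser against bur (adjusted p = 0.506). The other Cd4 probe gave 0.13, 0.22 and 0.09, none of them called. In the authors' deposited table the brighter probe differed by 0.63 for laser against control, with an adjusted p of 0.0117. Cd5, a regulator of T-cell receptor signals that is also found on some B cells, was well above background on 2 laser, 0 bur and 1 control arrays and was not tested. It read 1.33, 1.68, 1.94 and 3.44 on laser arrays, 0.95, 2.90, 0.87 and 1.45 on bur arrays and 1.54, 2.78, 2.56 and 3.31 on control arrays, values at which most arrays show only background. Its 60-base probe spans 827 bases of chromosome 1 in rn4.

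Nkg7 encodes a protein of cytotoxic granules in NK cells and cytotoxic T cells. It read 11.67, 11.99, 12.47 and 12.98 on laser arrays, 11.08, 11.33, 12.38 and 11.63 on bur arrays and 12.35, 12.42, 13.14 and 13.61 on control arrays. Bur arrays were lower than control arrays but for bur 3, which was just above control 1, and laser arrays lay between them with overlap on both sides. The means were 12.28 ± 0.57 in laser, 11.61 ± 0.57 in bur and 12.88 ± 0.60 in control bone (SD, n = 4 each). Nkg7 was 2.42-fold lower in bur than in control bone, a log2 fold change of -1.27 ± 0.38 (adjusted p = 0.0348), and the interval for the fold ran over 0.233 to 0.734. Its difference was -0.60 for laser against control (adjusted p = 0.244) and 0.67 for laser against bur (adjusted p = 0.216). The bur against control call was lost when the fit held only those 2 groups (adjusted p = 0.0606), with array weights (0.0684) and without control 1 and control 4 (-1.17, adjusted p = 0.118). It was also lost without bur 1, bur 2, bur 4, control 3 or control 4, with values from -1.28 to -1.03. In the authors' deposited table Nkg7 differed by -1.39 for bur against control (adjusted p = 0.000412), -0.68 for laser against control (adjusted p = 0.0139) and 0.71 for laser against bur (adjusted p = 0.0133).

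Gzmb, which encodes granzyme B, read 3.80, 3.5, 4.03 and 3.99 on laser arrays, 3.82, 3.16, 2.52 and 0.76 on bur arrays and 2.80, 3.38, 3.51 and 2.73 on control arrays. It was well above background on 4 laser, 1 bur and 1 control arrays, counts for which slide and treatment cannot be told apart. Only bur 1 reached into the range of the laser arrays. The log2 fold change was 1.26 ± 0.51 for laser against bur (adjusted p = 0.0916), or 0.85 with the dim arrays raised to the background limit. Bur against control gave -0.54 (adjusted p = 0.492), or -0.13 at that limit, and laser against control 0.73 (adjusted p = 0.305). The laser against bur difference was called under 75th percentile scaling (1.35, adjusted p = 0.0161), with array weights (1.41, adjusted p = 0.0236) and without bur 1 (1.68, adjusted p = 0.025). It was 0.66 without bur 4 and 0.18 with normexp background correction. The other Gzmb probe was well above background on 1 of 12 arrays.

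Prf1, which encodes the pore-forming protein perforin, read 4.89, 5.02, 6.43 and 6.37 on laser arrays, 4.92, 3.30, 6.62 and 5.94 on bur arrays and 4.04, 4.13, 7.07 and 4.98 on control arrays. The groups overlapped, and it was well above background on 4 laser, 3 bur and 3 control arrays. Prf1 had a log2 fold change of 0.14 ± 0.80 for bur against control (adjusted p = 0.922), 0.62 for laser against control (adjusted p = 0.583) and 0.48 for laser against bur (adjusted p = 0.701). Il2rb, the beta chain of the interleukin-2 and interleukin-15 receptors, read 5.34, 5.23, 6.38 and 6.21 on laser arrays, 5.25, 4.47, 6.13 and 5.76 on bur arrays and 4.40, 5.13, 6.51 and 5.17 on control arrays. Its groups overlapped as well. Il2rb had a log2 fold change of 0.10 for bur against control (adjusted p = 0.909), 0.49 for laser against control (adjusted p = 0.461) and 0.39 for laser against bur (adjusted p = 0.588), and the other Il2rb probe gave 0.26, 0.67 and 0.41, none of them called.

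**Figure D3:**
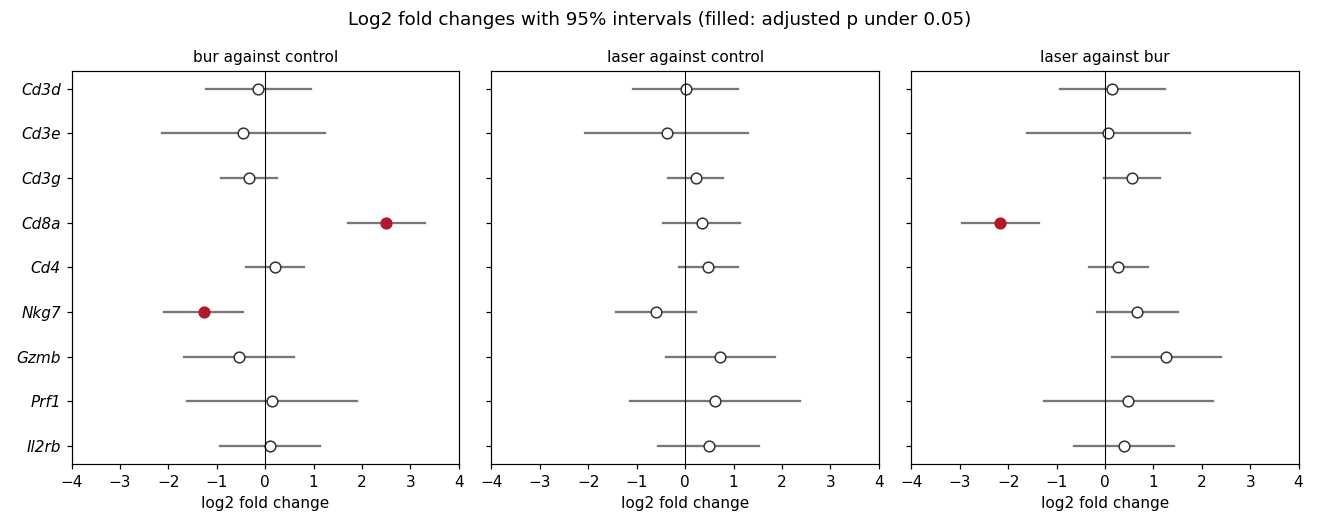
Log2 fold changes of the 9 tested genes with 95% intervals in the 3 comparisons, filled where the limma adjusted p is under 0.05. Cd8a is filled in bur against control (2.50) and in laser against bur (-2.16), Nkg7 in bur against control (-1.27), and the other intervals are open.

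Arrays of 1 group differed in most of these genes together. Array 3 was the highest of its group for 6 of 9 genes among laser arrays, 6 of 9 among bur arrays and 8 of 9 among control arrays. The lowest array was laser 2 for 5 genes, bur 2 for 5 genes and control 1 for 7 genes. Cd8a followed this order in control bone, where array 3 was the highest and array 1 the lowest, but bur 3 was its lowest bur array and laser 3 its lowest laser array. The array number is also the position of the array on its slide. Over the 12 arrays, the named genes most like the mean of the 3 CD3 chains were Ly49i2 (Pearson r = 0.935), Ptprcap (0.934), Nlrc3 (0.926), Cxadrl1 (0.918) and Klra22 (0.918). Ly49i2 and Klra22 belong to the Ly49 family of NK receptors, and Ptprcap encodes a protein bound to CD45. These correlations are descriptions over arrays that differ in slide and in signal before normalization.

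**Figure D4:**
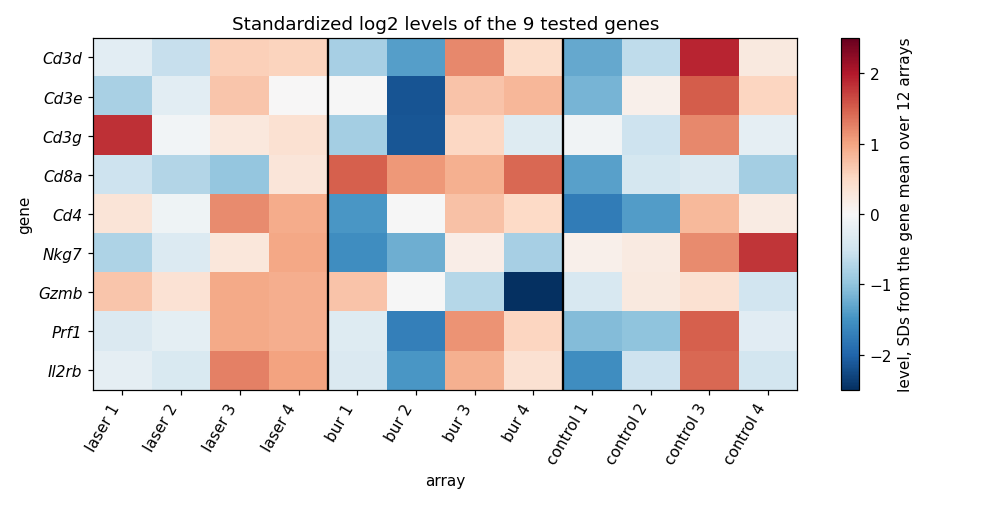
Log2 levels of the 9 tested genes on the 12 arrays, laser, bur and control from left to right, as SDs from the mean of each gene over the arrays. Control 3 is the highest control array in 8 of 9 rows, and the Cd8a row is high on the 4 bur arrays.

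The rest of the T-cell receptor complex and its signalling genes were read as a list. Of 18 listed genes 16 were tested. For bur against control 3 were higher and 0 lower, against 12.6% and 7.84% of all probes. For laser against control 2 were higher and 0 lower, against 18.9% and 13.9%. For laser against bur 1 was higher and 1 lower, against 13.4% and 13.9%. The list's median log2 fold change was -0.01, 0.00 and -0.27. Besides Cd8b and Cd2, Fyn, a kinase of receptor signalling, rose in bur against control bone (0.60, adjusted p = 0.0114) and was lower in laser than in bur bone (-0.59, adjusted p = 0.00898). Its other probe gave 0.79 and -0.82, both called. Cd7, a surface protein of T cells and NK cells, rose in laser bone by 0.95 against control (adjusted p = 0.00134) and by 1.35 against bur (adjusted p = 0.000145). Cd2 was 1.64 higher in laser than in control bone (adjusted p = 0.0487), a call lost without control 1 and control 4 (0.58) and without each single array but bur 4 and control 3. Cd247, the zeta chain of the receptor complex, read 5.40 to 7.17 on laser arrays, 5.28 to 7.42 on bur arrays and 5.07 to 8.43 on control arrays, which overlapped. Its log2 fold change was -0.28 for bur against control (adjusted p = 0.813). Without control 1 and control 4, 1 of the 16 was higher and 0 lower for bur against control, which was Fyn, and 1 was higher and 1 lower in each laser comparison.

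Of 24 listed cytotoxic and NK genes 19 were tested. For bur against control 2 were higher and 2 lower, against 12.6% and 7.84% of all probes. For laser against control 1 was higher and 2 lower, against 18.9% and 13.9%. For laser against bur 0 were higher and 2 lower, against 13.4% and 13.9%. The medians were 0.08, 0.03 and 0.20 in that order. Leaving out control 1 and control 4 gave 2 higher and 1 lower for bur against control, 0 and 1 for laser against control, and 1 and 2 for laser against bur. Cd244, an NK receptor that is also found on other white blood cells, read 8.11, 8.22, 7.25 and 8.48 on laser arrays, 10.09, 9.34, 8.72 and 10.31 on bur arrays and 7.37, 7.49, 7.78 and 7.42 on control arrays. Bur arrays did not overlap the others, and the log2 fold change was 2.10 ± 0.35 for bur against control (adjusted p = 0.00224) and -1.60 for laser against bur (adjusted p = 0.00601). Lamp1, a protein of lysosomes in most cells, differed by 0.73 (adjusted p = 0.0128) and -0.60 (adjusted p = 0.0234) in these comparisons, the second call being lost without bur 1, bur 4, laser 1 or laser 3. Faslg, the Fas ligand, fell in bur against control bone (-1.52, adjusted p = 0.0141), but its other probe gave -0.54 (adjusted p = 0.217). Cd226, an activating receptor, fell by 1.14 for bur against control (adjusted p = 0.0364) and by 1.47 for laser against control (adjusted p = 0.00697), while 2 other probes gave -0.41 and -0.68, and -1.18 and 0.17, none of them called. Its bur against control call was also lost without bur 1, bur 2, bur 4, control 2, control 3 or control 4. The granzyme genes Gzma, Gzmk and Gzmm gave 0.17, 0.06 and -0.24 for bur against control, none of them called. Gzmc, the 1 gene called higher for laser against control, was well above background on 4 laser, 0 bur and 0 control arrays. It passed the filter through the laser arrays alone, so its call cannot serve as a test. That call (limma adjusted p = 0.0162) rests on the values as read. It was lost with normexp background correction and without control 1 and control 4. At the background limit Gzmc was at least 1.21-fold higher in laser than in control bone. Rab27a, which docks granules, fell by 1.0 for laser against control (adjusted p = 0.0199), a call lost without laser 1, laser 2, control 3 or control 4. Ifng, Ncr1, Klrg1, Cd160 and Gzmf did not pass the filter on dim probes.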

How the data were processed

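Each deposited scanner file lists spot intensity values; the submitters' processing notes name Agilent Feature Extraction 11.0.1.1, and the processed signal already had its background corrected per the file headers. The authors' deposited tables hold log2 values, named as quantile normalized, log2 fold changes and p-values; the first 21080 of 24920 entries were used, whose median correlation over the arrays with the scanner values of the same probe was 0.961, and the other 3840, with 0.244, were not. For the results here, log2 of the processed signal was quantile normalized; 4259 control spots of 62976 and outlier spots were left out, no spot was saturated, and spots of a probe were averaged. Probes well above background on at least 4 of 12 arrays entered 1 fit in limma 3.58.1 (R 4.3.3) with group as the term, tested on simulated data. Adjusted p-values are Benjamini-Hochberg over all 27194 probes of a comparison. A gene is counted by its brightest probe that passed. A bound of the kind "at least" sets each dim array at the higher of its own signal and the dimmest signal still well above background there. The number of arrays limits the precision. The genes and the lists of related genes and cell type markers were chosen with earlier results of these data known. All 10 genes are named with every probe, and of each list up to 6 genes with the smallest p plus the 2 lists on T-cell receptor and cytotoxic genes; a subset is printed, and Nlrc3 and the like are the 5 genes with the highest Pearson r. Alternatives covered scaling, background correction, the filter, the authors' values, several probes per gene, fits of 2 groups, a replicate block, array weights, an intensity trend and leaving out arrays; for the lists, leaving out control 1 and control 4 together was chosen after seeing the data. B-cell, neutrophil, bone and neural markers were also read. For bur against control 0 were higher and 1 lower of 8, 1 and 1 of 8, 1 and 0 of 8, and 0 and 2 of 6. For laser against control the counts were 0 and 2, 2 and 0, 3 and 0, and 1 and 2. Laser against bur gave 0 and 1, 2 and 1, 0 and 0, and 1 and 0. The shares of all probes called were 20.4%, 32.8% and 27.3% in that order of comparisons. Some of these marker calls rest on 1 of several probes. Cd22, the B-cell gene called for bur against control, differed by -1.77, but its other probes gave -0.08 and 0.18, neither called. S100a8, called higher for laser against control among neutrophil markers, had another probe called lower there (-0.97, limma adjusted p = 0.0365).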

Additional observations from a re-analysis of the deposited data

How the results depend on the processing

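Cd8a was called in bur against control and laser against bur under every alternative run. For bur against control the genes called fell to 1 with a fit of the 2 groups, array weights or without control 1 and control 4, and were 1 to 2 when single arrays were left out; the gene lost was Nkg7. For laser against bur 2 were called under 75th percentile scaling, the replicate block and array weights, and 1 to 2 without single arrays; the gene gained was Nkg7 with the block (0.67, adjusted p = 0.0434) and otherwise Gzmb. For laser against control 1 was called in the fit of 2 groups, Gzmb (0.73, adjusted p = 0.0389), and 0 without any single array. Probes called for bur against control were 3699 with probes averaged per gene, 3243 in the fit of 2 groups, 3273 without control 1 and control 4, and 3880 to 6205 without single arrays. For laser against control they were 5637 with 1 probe per gene, 5125 averaged and 6769 to 9155 without single arrays, and for laser against bur 4224, 3917 and 5419 to 8037. Higher calls made up 61.6% for bur against control, but 41.1% with each array scaled to its 75th percentile and 50% when control 1 and control 4 were left out, and 49.1% for laser against bur, but 36.8% among probes bright on all 12 arrays. The 75th percentile scaling moved the median of all probes for bur against control to -0.09, against 0.10. The replicate block left 2, 0 and 2 genes called for bur against control, laser against control and laser against bur, with Nkg7 for bur against control at an adjusted p of 0.00502. The deviations of same-numbered arrays from their group means correlated at -0.073 to 0.29, over 0.1 in 7 of 12 pairs. The same-numbered array was also the best match in 7 of 12 pairs. The labels tie the number to no animal or day, so pairing was not taken as given, although the number is also the position on the slide. Variation that same-numbered arrays share thus counts as spread in the main fit, which can widen its intervals. The direction of uncalled genes turned as follows, and the cause was not tested. Cd3d for laser against control was -0.07 under 75th percentile scaling, -0.27 with array weights and -0.39 without control 1 and control 4, and for laser against bur -0.17 with array weights. Cd3e for laser against bur was -0.25 with array weights, and Prf1 -0.02. Without control 1 and control 4, Cd8a for laser against control was -0.10, Il2rb -0.03 there and -0.42 for bur against control, and Prf1 for bur against control -0.40. Il2rb for bur against control was -0.24 and Prf1 -0.21 under 75th percentile scaling, and Il2rb -0.04 with normexp. Leaving out single arrays gave for bur against control -0.45 to 0.29 in Cd3d, -0.99 to 0.29 in Cd3e, -0.96 to 0.06 in Gzmb, -0.20 to 0.50 in Il2rb and -0.34 to 0.81 in Prf1. For laser against bur it gave -0.14 to 0.47 in Cd3d, -0.67 to 0.44 in Cd3e and -0.15 to 0.96 in Prf1, and for laser against control -0.30 to 0.44 in Cd3d and -0.91 to 0.08 in Cd3e. Dim signal limits Cd3e, Gzmb, Prf1 and Cd5.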

Other observations

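Of 17 listed T-cell transcription factors and checkpoint receptors 10 were tested. For bur against control 2 were higher and 0 lower, against 12.6% and 7.84% of all probes. For laser against control 1 and 0 were called so, against 18.9% and 13.9%, and for laser against bur 1 and 3, against 13.4% and 13.9%. With control 1 and control 4 left out these counts were 1 and 0, 0 and 1, and 1 and 3. Havcr2, which encodes TIM-3, a receptor of exhausted T cells that myeloid cells also carry, read 6.48, 6.45, 4.30 and 6.46 on laser arrays, 9.07, 8.94, 7.27 and 8.21 on bur arrays and 6.06, 6.02, 3.44 and 3.19 on control arrays. Bur arrays lay above the others, with a log2 fold change of 3.69 ± 0.76 for bur against control (limma adjusted p = 0.00665) and -2.45 for laser against bur (adjusted p = 0.034). The other Havcr2 probe gave 3.18 and -2.55, both called. For the brighter probe the laser against bur call was lost without any 1 of the laser arrays and without bur 1, bur 2 or bur 4, with values from -2.64 to -1.91. Icos, a co-stimulator of activated T cells, differed by 0.92 for bur against control (adjusted p = 0.00573), and its other probe by 0.68 (adjusted p = 0.196). Without control 1 and control 4 this Icos call was lost (0.69, adjusted p = 0.0609). For laser against bur Icos differed by -0.75 (adjusted p = 0.0113) and its other probe by -1.24 (adjusted p = 0.0233). The other gene called lower in that comparison, Foxp3, read 2.59 to 3.16 on laser arrays and 3.07 to 3.76 on bur arrays. It was well above background on 4 laser, 0 bur and 2 control arrays, so the higher group read only background. Its call held in 6 of 12 fits that each left out 1 array. Tbx21, which encodes the T-box factor of cytotoxic and type 1 helper cells, was higher in laser than in bur bone (1.32, adjusted p = 0.00833). Its probe read 13.42 to 14.07 on laser arrays, 11.83 to 12.82 on bur arrays and 12.23 to 13.52 on control arrays. That is brighter than Cd3d on any array (7.39 to 9.70), and which cells gave the signal was not tested. The probes of Eomes, on the same list, went apart. Its counted probe had means of 3.88 in laser, 4.12 in bur and 5.63 in control bone and was not called. Another was well above background on 4 laser, 0 bur and 0 control arrays, so it passed the filter through laser arrays alone. In laser bone that probe was at least 27.6-fold above control and 26.6-fold above bur bone. Ctla4, Pdcd1, Lag3, Tigit, Gata3 and Themis were among those that did not pass the filter on dim probes.

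Of 22 listed lymphocyte cytokine, receptor and homing genes 15 were tested. For bur against control 1 was higher and 1 lower, against 12.6% and 7.84% of all probes. For laser against control 1 and 1 were called so, against 18.9% and 13.9%, and for laser against bur 2 and 0, against 13.4% and 13.9%. When control 1 and control 4 were left out these counts were 0 and 1, 1 and 1, and 2 and 0. Cxcl10, a chemokine that draws activated T cells, read 4.76 to 6.91 on laser arrays, 5.89 to 8.53 on bur arrays and 4.59 to 5.33 on control arrays, and its log2 fold change was 2.49 for bur against control (adjusted p = 0.0105), or 2.27 without control 1 and control 4 (adjusted p = 0.0828). Il2ra, the alpha chain of the interleukin-2 receptor, was lower than in control bone in both laser bone (-1.15, adjusted p = 0.00145) and bur bone (-0.80, adjusted p = 0.0177). One probe of Il7, a survival cytokine of lymphocytes, differed by 2.80 for laser against control (adjusted p = 0.000158), while 2 other Il7 probes gave 0.03 and -0.08 and were not called. The 2 genes called higher for laser against bur were Il7 and Il15, each through 1 probe. In that comparison the other Il7 probes gave 0.14 and 0.14 and the other Il15 probes -0.43 and -0.28, none of them called.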
